A study of Mus musculus with 12 samples.

Results

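The interferon response genes described here are 40 genes that cells switch on, or keep ready, under type I or type II interferon. They were chosen by name, without a threshold on any measured value, and all 40 are among the 24189 genes that every RNA-seq file of the series lists. Expression was followed in plasmablasts (PBs) of 3 genotypes and in splenic plasma cells (PCs) of 2 genotypes, with 2 libraries each and 10 in all.

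Type I interferons act through the receptor chains Ifnar1 and Ifnar2, whose kinases phosphorylate Stat2 among other factors. Stat2 acts in a complex with Irf9 that binds the interferon-stimulated response element, a promoter sequence in which GAAA is repeated at a short distance. The genes reached in this way encode sensors of foreign nucleic acid, enzymes that degrade or modify RNA and proteins that hold back viral entry or release, and Irf7 feeds back to raise interferon production. In B lineage cells the pathway is known both as an antiviral defence and as a signal that acts on antibody responses.

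All mice were of the C57BL/6 strain, and their ages are not given in the sources used here. The PBs were grown from splenic B cells on 40LB feeder cells, a fibroblast line that presents CD40 ligand and BAFF, first with IL-4 and then with IL-21, and were sorted on day 8 as CD138+CD23- cells of the B lineage. The control carried the floxed but intact Xbp1 gene (Xbp1 fl/fl). The others were Cd23-Cre Xbp1 fl/fl, in which B lineage cells delete Xbp1, and Bhlha15 CreER/CreER, with CreER in the gene that encodes the transcription factor Mist1. The PCs were sorted from the spleen as TACI+CD138+ cells on day 7 after immunization with NP-KLH in alum. Their genotypes are given as wildtype and Cd23-Cre Bhlha15 fl/fl in the labels, and the methods of the study describe the control as Bhlha15 fl/fl. Cd23-Cre starts to delete in B cells before the culture or the immunization, so that deletion began before PBs or PCs formed. The labels do not say whether the 2 libraries of a group came from separate mice, and p-values measure the spread between these libraries, which may be technical.

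Values are TPM, shares of transcripts that are corrected for gene length and sum to 1000000 in each library, so that the sequencing depth is unknown. Log2 fold changes were fitted with limma on TPM rescaled between libraries plus 0.1, a scale that understates the change of low genes, and a gene was called at a Benjamini-Hochberg adjusted p under 0.05 over all genes tested. The stricter rule also asked for a fold above 3 and a mean above 5 TPM in the higher group. The targeted genes followed the labels. Bhlha15 averaged 167 TPM in the control PBs, 3.09 TPM after deletion of Xbp1 and 0.380 TPM with the CreER allele, and in PCs it fell from 249.9 to 15.5 TPM, while Xbp1 itself fell from 3105 to 2002 TPM where it was deleted, although reads from outside the deleted part may still be counted. Markers of antibody-secreting cells were present in all 10 libraries. The summed level of 10 fibroblast markers ranged from 949 to 1846 TPM in the PB libraries and from 9.40 to 12.4 TPM in the PC libraries, and that of 8 neutrophil markers from 1.08 to 125 TPM and from 448 to 951 TPM, respectively.

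The promoters of the 40 genes were examined first, because they show what the genes share by sequence. RefSeq promoter windows of 300 bases (250 before and 50 after a start site, GRCm38.p6 table) were held for 31 of the 40 genes, and all 39 windows of these genes matched the mm9 genome (NCBIM37) used by the authors at a single place, from which coordinates are given. The response element, searched on both strands as GAAA, 2 bases of any kind and GAAA, occurred in windows of 17 of the 31 genes (54.8%) and of 3.99% of all 27025 genes with such windows. The gamma-activated site of the type II interferon response (TTC, 3 bases of any kind and GAA) was found for 9 of the 31 genes (29.0%) and for 9.55% of all genes. The E-box CANNTG, of the kind that Mist1 binds, was found for 22 of the 31 genes (71.0%) and for 75.0% of all genes, and its form CAGCTG was found for 7 (22.6%) against 18.3%. GACGTG, a core of the sites that Xbp1 binds, was found for Oasl2 and Isg20 alone (6.45% against 7.15%), and the longer TGACGTGG for Isg20 alone (3.23% against 0.714%). A match of letters is a description and not evidence of binding.

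The following stretches, 5′ to 3′ on the strand of the gene, are shown for genes on which the comparisons turn, with the motif in capitals. The Isg20 stretch, chr7:86058625-86058654 on the plus strand, holds GACGTG on the opposite strand in 2 places, both in an intron of the annotation. It spans a RefSeq start site inside the gene, and its end overlaps an exon. The Isg15 stretch, chr4:155574974-155575027 on the minus strand, holds 3 overlapping response elements and lies upstream of the gene. Bst2 (chr8:74061468-74061521, minus strand) holds 2 overlapping elements, Trim30a (chr7:111613714-111613767, minus strand) holds 1 on the opposite strand, and both stretches lie upstream of the gene. In Ifitm3 (chr7:148196614-148196643, minus strand) 2 elements lie in the first exon, and in Ddx58 (chr4:40186839-40186868, minus strand) the stretch with 1 element on the opposite strand spans the start site. For Stat2 (chr10:127707360-127707399, plus strand) and Ido1 (chr8:25707474-25707513, minus strand) an E-box CAGCTG is shown that lies inside a region bound by Mist1, 252 and 10 bases from the start site.
Isg20: ctccgtcCACGTCagaCACGTCatccgaaa
Isg15: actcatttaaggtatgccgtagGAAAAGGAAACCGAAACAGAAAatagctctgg
Bst2: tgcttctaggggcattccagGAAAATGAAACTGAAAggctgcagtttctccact
Trim30a: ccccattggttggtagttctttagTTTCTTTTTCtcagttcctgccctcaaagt
Ifitm3: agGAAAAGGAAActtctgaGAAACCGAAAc
Ddx58: gccctgaggcagTTTCGATTTCctatggcc
Stat2: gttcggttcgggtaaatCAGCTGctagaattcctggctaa
Ido1: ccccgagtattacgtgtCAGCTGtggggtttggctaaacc

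The interferon response genes spanned a wide range of levels in PBs, which had been grown without added interferon. In Xbp1 fl/fl PBs, 4 of the 40 genes had a mean of at least 100 TPM, 18 lay between 10 and 100, 13 between 1 and 10 and 5 below 1 TPM, with a median of 17.7 TPM. The highest were Isg20, an exonuclease that degrades RNA, at 343 and 337 TPM, Bst2 (tetherin, which retains budding virus) at 309.8 and 297 TPM, and Samhd1, which depletes deoxynucleotides, at 269.8 and 253 TPM. Genes that are classically near silent before interferon were low, with Rsad2 (viperin) at 0.178 and 0.380 TPM, Mx1, a GTPase against viruses, at 0.543 and 0.686 TPM, and Ifitm1 listed at 0 in both libraries. Replicate libraries of a group differed by a median of 0.0940 to 0.156 on the log2 scale among the 40 genes, which compares with 0.0842 to 0.159 over all genes tested.

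**Figure D1:**
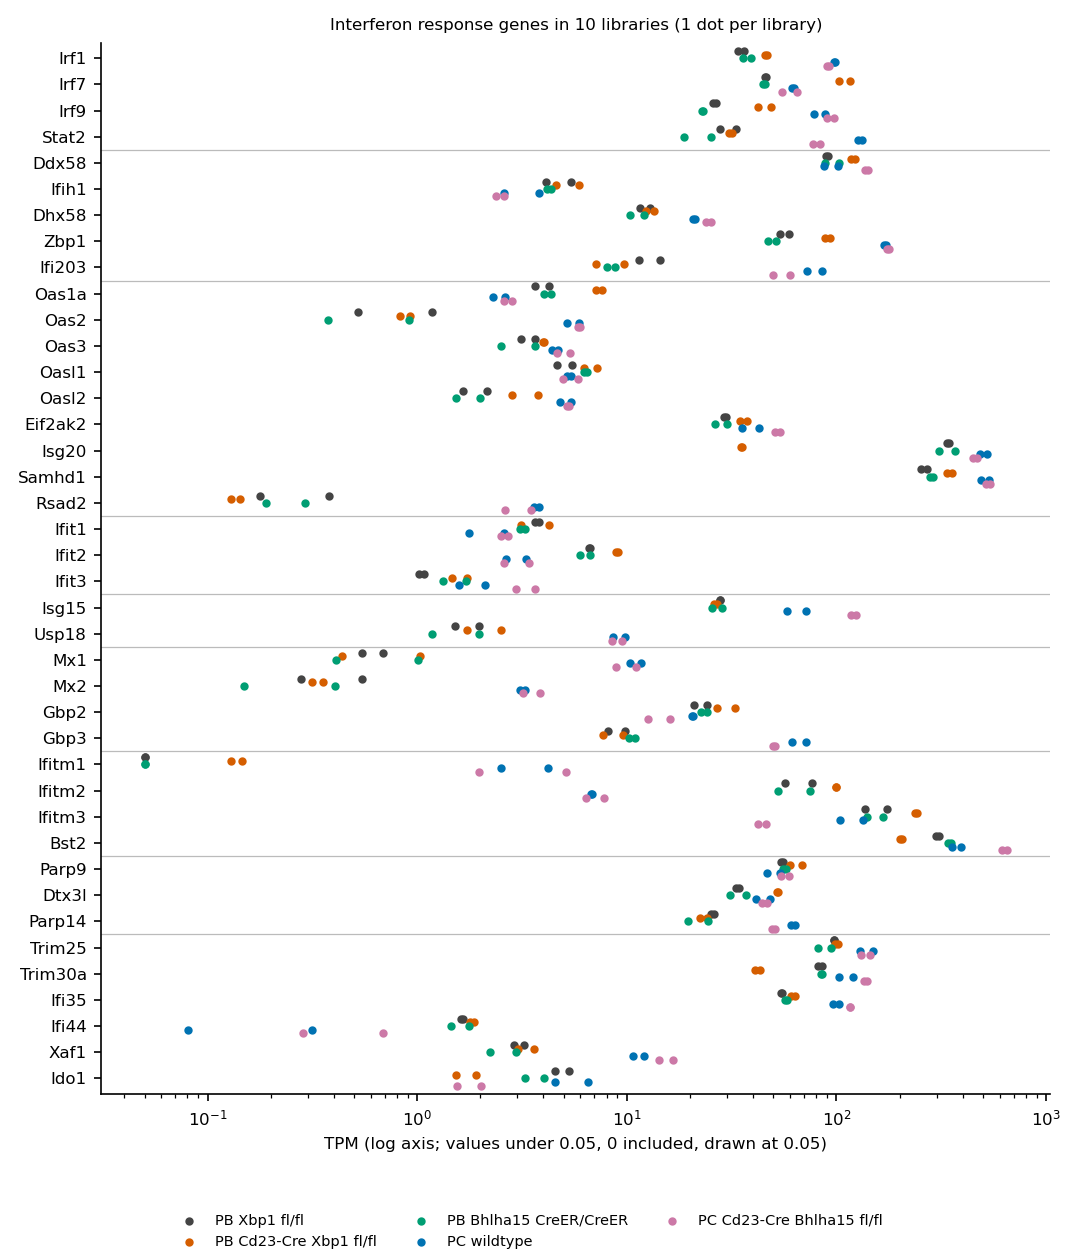
Each dot is the level of a gene in 1 library, in TPM on a log axis, for the 40 genes grouped by role with grey lines between the roles and coloured by group of 2 libraries. Isg20 stands apart in Cd23-Cre Xbp1 fl/fl PBs at 35.3 and 35.1 TPM, and Mx1, Mx2, Rsad2, Oas2 and Usp18 are higher in the 4 PC libraries than in the 6 PB libraries.

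In the control PCs most of these genes had higher levels. The median of the 40 genes was 29.96 TPM, 8 had at least 100 TPM, and the summed level of the 40 genes was 2974 and 3086 TPM against 1899.8 and 1938 TPM in the control PBs. When the 2 controls were compared in a model of all 10 libraries, 27 of the 40 genes were higher in wildtype PCs and 8 lower, while 5 (Ddx58, Oas3, Oasl1, Gbp2 and Ido1) were not called. Over all 13230 genes tested, 37.6% were called higher and 38.4% lower. The median log2 fold change was 0.55 for the 40 genes and 0.0064 for all genes. Among the genes called higher, Ifitm1 was listed at 0 in both control PB libraries, so that no fold is given for it. Markers of other cell types moved in the same direction, with summed levels of 7.13 and 6.22 TPM in the control PBs and 256 and 261 TPM in the control PCs for macrophages or monocytes, 10.5 and 12.3 against 87.9 and 88.5 TPM for T cells and 8.41 and 7.92 against 951 and 448 TPM for neutrophils. Their part in the increase was not tested. Cell stage, culture against spleen, sort, genotype of the control and experiment go together in this comparison and cannot be told apart, and fewer expressing cells cannot be told from less RNA per cell in any of these bulk samples.

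By the stricter rule 8 of the 40 genes (7 higher and 1 lower) changed between the controls, and 14% of all genes did. Mx1 reached 11.6 and 10.4 TPM in wildtype PCs, which is higher by 3.86 on the log2 scale (SE 0.43, adjusted p = 3.5e-05). Gbp3, an interferon-induced GTPase, was at 8.17 and 9.82 TPM in PBs and at 71.9 and 61.4 TPM in PCs (2.77, SE 0.13, adjusted p = 1.43e-07). Oas2, which makes the activator of RNase L, rose from 0.523 and 1.18 TPM to 5.18 and 5.91 TPM (2.55, SE 0.39, adjusted p = 0.000278), and Ifi203, a DNA sensor of the Ifi200 family, from 11.4 and 14.3 TPM to 72.5 and 85.5 TPM (2.502, SE 0.17, adjusted p = 1.17e-06). Usp18, the protease that removes Isg15 from proteins and damps the type I receptor, rose from 1.52 and 1.96 TPM to 9.83 and 8.62 TPM (2.24, SE 0.29, adjusted p = 8.51e-05). The annotation gives Ifi203 exons in common with Mndal on the same strand, so that reads of these genes may have been shared.

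The factors that carry the signal were all higher in wildtype PCs. Stat2 rose from 27.8 and 33.1 TPM to 127 and 132 TPM (log2 fold change 1.98, SE 0.11, adjusted p = 3.53e-07), and Irf9, its partner, from 25.7 and 26.6 TPM to 78.1 and 88.0 TPM (1.55, SE 0.082, adjusted p = 3.15e-07). Irf1 rose from a mean of 35.2 to 97.6 TPM and Irf7 from 45.7 to 62.1 TPM, with log2 fold changes of 1.36 and 0.33. Xaf1, a proapoptotic interferon target, rose from 2.90 and 3.23 TPM to 10.7 and 12.1 TPM (1.75, SE 0.17, adjusted p = 1.11e-05).

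The genes lower in PCs than in PBs included some members of the IFITM and IFIT families, while Ifitm1 and Ifit3 of these families were called higher. Ifit3 was at 1.08 and 1.02 TPM in PBs and at 1.59 and 2.10 TPM in PCs (0.64, adjusted p = 0.031). Its call was lost without the filter on low values and with only the libraries compared. Ifitm2, which blocks viral entry at endosomes, was at 56.9 and 76.5 TPM in PBs and at 6.76 and 6.85 TPM in PCs (-3.37, SE 0.16, adjusted p = 1.67e-07), and Ifitm3 fell from 136 and 174 TPM to 133 and 104 TPM (-0.50, SE 0.14, adjusted p = 0.0089), a call lost without Xbp1 fl/fl replicate 2 or wildtype replicate 2 (adjusted p up to 0.0742). Ifit2, which binds foreign RNA, fell from 6.65 and 6.56 TPM to 2.65 and 3.29 TPM (-1.25, SE 0.16, adjusted p = 9.95e-05), and Parp9 fell from 55.3 and 54.5 TPM to 46.9 and 53.9 TPM (-0.24, SE 0.084, adjusted p = 0.0267), a call that was lost on TPM as deposited, without the trend in the spread and without wildtype replicate 1 or either PB library (adjusted p up to 0.202). The other genes called lower were Ifih1, Oas1a, Ifit1 and Ifi44, each with a mean below 5 TPM in both groups. Of 35 other genes of the pathway that were tested, 13 were higher (37.1%, against 37.6% of all genes) and 12 lower (34.3%, against 38.4%). The MHC class I activator Nlrc5 (2.09) and the DNA receptor Tlr9 (3.50) were among the higher. Inhibitors of signalling went both ways, with Socs1 (-1.88) and Socs3 (-2.01) lower and Pias1 (0.83) and Ptpn2 (0.47) higher. The fibroblast marker sum moved in the same direction as Ifitm2 and Ifitm3 in this comparison, and its part in their change was not tested.

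Loss of Xbp1, the transcription factor of the unfolded protein response that enlarges the secretory apparatus, was examined in PBs to ask which interferon response genes follow it. Of the 36 genes that could be tested, 6 were higher and 6 lower in Cd23-Cre Xbp1 fl/fl than in Xbp1 fl/fl PBs, and 24 were not called (Oas2, Rsad2, Mx2 and Ifitm1 did not reach 1 TPM in enough libraries). Among all 12125 genes tested 10.3% were called higher and 18% lower. The median log2 fold change was 0.028 for the 36 genes and 0.0041 for all genes. On TPM as deposited the median of all genes shifted to 0.21, and 13 of the 36 genes were then higher and 5 lower, as were 3423 and 1357 of all genes (1250 and 2186 after rescaling), so that the changes below are relative to the median gene. By the stricter rule only Isg20 changed, against 1.87% of all genes.

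Isg20 was the gene of the list with the largest change. Against 343 and 337 TPM in the control, it reached only 35.3 and 35.1 TPM after deletion of Xbp1. On the log2 scale this was a difference of -3.48 (SE 0.12, adjusted p = 7.27e-07), a fold of 11.1. In Bhlha15 CreER/CreER PBs, where Xbp1 was intact, Isg20 was at 309 and 366 TPM, on both sides of the control. The gene lies on chromosome 7 at 86058310-86065248 of mm9, and it is in the list of Xbp1-activated genes that the study drew up from these libraries, which is not independent evidence. The stretch with the Xbp1-type motif, at a start site inside the gene, is printed above.

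The other genes that fell without Xbp1 differed in role. Trim30a, which restrains Toll-like receptor signalling, was at 81.2 and 85.1 TPM in the control and at 40.9 and 43.2 TPM without Xbp1 (-1.19, SE 0.081, adjusted p = 1.77e-05). Bst2 fell from 309.8 and 297 TPM to 205 and 200 TPM (-0.79, SE 0.092, adjusted p = 0.000376). A stretch of 401 bases of Trim30a transcripts is nearly identical to one of Elmod2, so that reads may be divided between them. Ifi203 fell from 11.4 and 14.3 TPM to 9.71 and 7.10 TPM (-0.82, SE 0.17, adjusted p = 0.00738), and Parp14, an ADP-ribosyltransferase, from 26.04 and 25.2 TPM to 22.3 and 24.1 TPM (-0.35, SE 0.099, adjusted p = 0.0303). The Parp14 call was lost in 4 of 9 alternative settings and without any 1 of the 4 libraries, and the Ifi203 call was lost without Xbp1 fl/fl replicate 2 (adjusted p = 0.0646). Ido1, which degrades tryptophan and was named after its values were seen because it stayed just below 5 TPM, fell from 5.28 and 4.55 TPM to 1.54 and 1.90 TPM (-1.67, SE 0.21, adjusted p = 0.000656).

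The 6 genes that rose without Xbp1 included 2 of the 4 signal transducers and transcription factors, Irf7 and Irf9. Irf7, the regulator that amplifies interferon production, rose from 45.4 and 45.9 TPM to 102 and 116 TPM (1.05, SE 0.087, adjusted p = 5.65e-05), a fold of 2.07. Irf9 rose from 25.7 and 26.6 TPM to 42.1 and 48.9 TPM (0.58, SE 0.098, adjusted p = 0.00285). The exons of Irf7 and Irf9 overlap those of other genes in the annotation (Phrf1 on the opposite strand of Irf7 and Rnf31 on the strand of Irf9). Zbp1, a sensor of Z-form nucleic acid that can start cell death, rose from 59.5 and 53.6 TPM to 88.3 and 93.4 TPM (0.48, SE 0.11, adjusted p = 0.0146), and Dtx3l, a ubiquitin ligase that works with Parp9, from 33.0 and 34.3 TPM to 52.2 and 52.4 TPM (0.43, SE 0.078, adjusted p = 0.00425). Dtx3l exons overlap those of Parp9 on the opposite strand in the annotation. Oas1a rose from 3.64 and 4.26 TPM to 7.59 and 7.10 TPM (0.68, SE 0.15, adjusted p = 0.0114), although its transcripts are nearly identical to those of Oas1g and reads may be divided between them. The calls of Oas1a and Zbp1 were lost when some libraries were left out (Xbp1 fl/fl replicate 1 or either Cd23-Cre Xbp1 fl/fl library for Oas1a, Xbp1 fl/fl replicate 2 or Cd23-Cre Xbp1 fl/fl replicate 2 for Zbp1, with adjusted p up to 0.112), that of Zbp1 also without the trend. Stat2 was at 30.8 and 31.8 TPM without Xbp1 and was not called (log2 fold change -0.17, 95% interval -0.42 to 0.092), and Isg15 was at 25.99 and 26.8 TPM against 27.8 and 27.8 TPM (-0.28, -0.54 to -0.026, adjusted p = 0.0969).

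Ifitm3 rose from 136 and 174 TPM to 238 and 243 TPM (0.43, SE 0.099, adjusted p = 0.0128), and Ifitm2 was at 99.0 and 99.8 TPM against 56.9 and 76.5 TPM without being called (0.38, SE 0.14, adjusted p = 0.0783). The summed level of the 10 fibroblast markers was 1206 and 1445 TPM in the control, 1846 and 1696 TPM without Xbp1 and 1602 and 949 TPM in Bhlha15 CreER/CreER PBs. Ifitm2 was lowest in the library with the lowest marker sum, at 52.7 TPM, and highest in the pair with the highest sums. Ifitm3 was also highest in that pair but was lowest in Xbp1 fl/fl replicate 1, and at a marker sum of 1602 TPM both genes were below their levels at 1445 TPM. Col1a1 alone was at 459.7 to 904 TPM in the PBs, and the part of feeder RNA in the Ifitm2 and Ifitm3 values was not tested. The sum of 8 neutrophil markers also differed, with 8.41 and 7.92 TPM in the control and 125 and 123 TPM without Xbp1, as did that of 9 macrophage or monocyte markers with 7.13 and 6.22 against 17.1 and 18.0 TPM. The Ifitm3 call was lost without the trend, without Xbp1 fl/fl replicate 1 and without either Cd23-Cre Xbp1 fl/fl library (adjusted p up to 0.105).

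**Figure D2:**
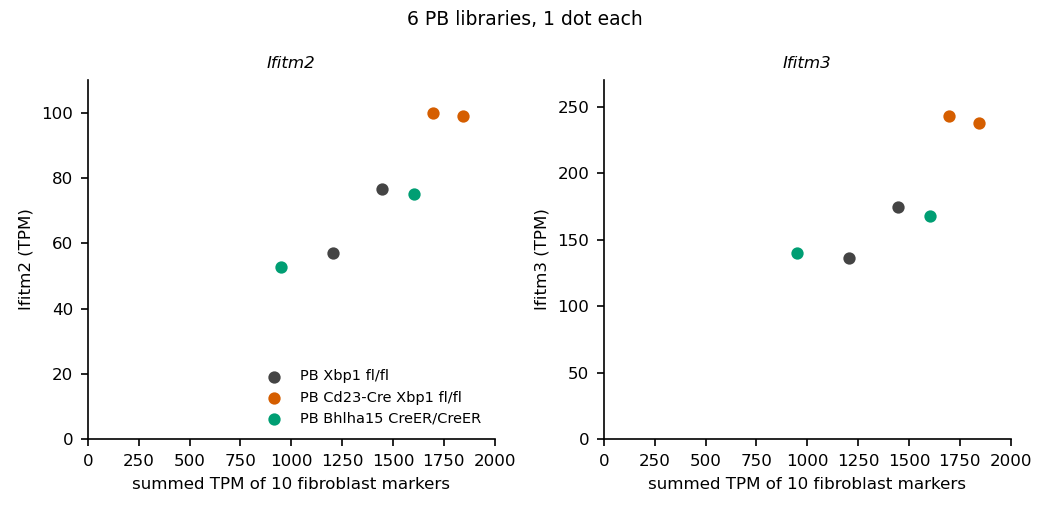
Levels of Ifitm2 and Ifitm3 (TPM) are plotted against the summed TPM of 10 fibroblast markers for the 6 PB libraries, 1 dot each, coloured by genotype. The pair of Cd23-Cre Xbp1 fl/fl libraries lies at the upper right, at marker sums of 1846 and 1696 TPM, and Bhlha15 CreER/CreER replicate 2 lies at the left at 949 TPM.

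The Bhlha15 CreER/CreER PBs, compared with the same Xbp1 fl/fl libraries, showed what PBs without Mist1 look like with Xbp1 intact. None of the 36 genes was called by limma in either direction, while 0.0495% of all genes were called higher (6), 0.272% lower (33) and 0.0495% by the stricter rule. The 3 genes with an unadjusted p under 0.05 are given as a description only, because the share of all genes at that threshold is not given here. Stat2 was at 25.3 and 18.8 TPM against 27.8 and 33.1 TPM (-0.43, 95% interval -0.69 to -0.18, adjusted p = 0.221), Ifi203 at 8.74 and 8.00 TPM against 11.4 and 14.3 TPM (-0.56, -0.95 to -0.18, adjusted p = 0.287) and Bst2 at 339 and 351 TPM against 309.8 and 297 TPM (0.23, 0.015 to 0.44, adjusted p = 0.449). Irf7, at 45.5 and 44.7 TPM, and Trim30a, at 84.2 and 85.3 TPM, overlapped with the control libraries on the scaled values, with 95% intervals of -0.17 to 0.22 and -0.12 to 0.26 for the log2 fold change.

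Set directly against Bhlha15 CreER/CreER PBs, Cd23-Cre Xbp1 fl/fl PBs had 6 of the 36 genes higher and 5 lower, where 9.34% and 17.8% of all genes were called. On TPM as deposited these counts were 14 and 4, and the median of all genes was 0.26. This comparison shares libraries with the 2 before it, and its values are given beside them and not as a further test. Isg20 had a log2 fold change of -3.50 here and was again the only gene past the stricter rule (1.9% of all genes), Trim30a one of -1.26, Bst2 of -1.02 and Ido1 of -1.28, while Gbp3 was called lower at -0.54. Irf7 had 1.02, Irf9 0.73, Zbp1 0.63, Oas1a 0.55, Ifitm3 0.40 and Dtx3l 0.37. The Oas1a call was lost without any 1 of the 4 libraries, that of Ifitm3 without 3 of them (Bhlha15 CreER/CreER replicate 1 was the exception), that of Dtx3l without either Cd23-Cre Xbp1 fl/fl library and that of Gbp3 without Bhlha15 CreER/CreER replicate 2, without replicate 1 of Cd23-Cre Xbp1 fl/fl or on the unscaled TPM (adjusted p up to 0.174).

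**Figure D3:**
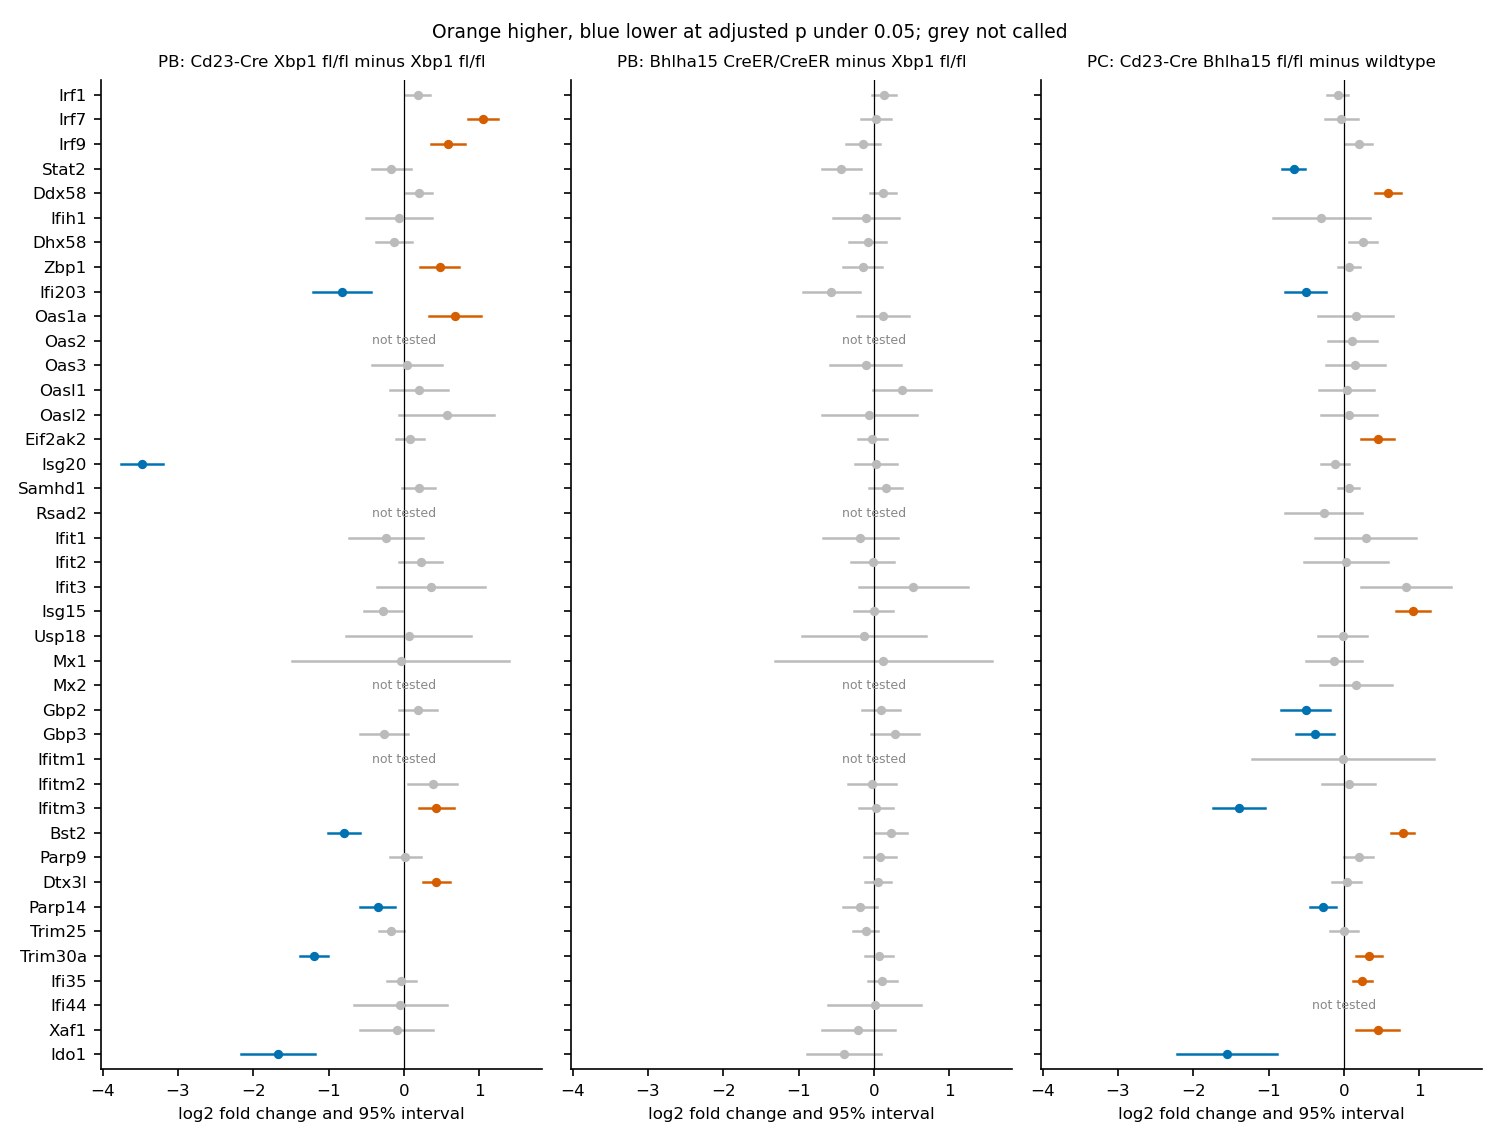
Log2 fold changes (dots) with their 95% intervals (lines) are drawn for the 40 genes in 3 comparisons, with orange for genes called higher, blue for genes called lower and grey for genes not called at an adjusted p of 0.05. No gene is coloured in the middle panel, and Isg20 at -3.48 in the left panel lies farthest from 0.

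Mist1, a helix-loop-helix factor of secretory cells, was deleted in PCs to ask what it does in antibody-secreting cells in vivo. Of 39 genes tested (Ifi44 was too low), 7 were higher and 7 lower in Cd23-Cre Bhlha15 fl/fl than in wildtype PCs, and 25 were not called. Over all 12028 genes tested, 13.3% were called higher and 16.2% lower. The median log2 fold change was 0.063 for the 39 genes and 0.014 for all genes. No gene of the list passed the stricter rule, which 0.848% of all genes did.

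Isg15, the ubiquitin-like modifier that is attached to proteins under interferon, was at 58.1 and 71.4 TPM in wildtype PCs and at 117 and 124 TPM without Mist1 (log2 fold change 0.92, SE 0.092, adjusted p = 0.00255). Bst2 rose from 355 and 391 TPM to 653 and 615 TPM (0.78, SE 0.062, adjusted p = 0.00174), which made it the highest gene of the list in these cells. Ddx58, which encodes the RNA sensor RIG-I, rose from 86.7 and 101 TPM to 137 and 141 TPM (0.59, SE 0.071, adjusted p = 0.00397). The calls of these 3 genes were kept in all 9 alternative settings and without each library in turn.

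Smaller increases were seen for Xaf1, from 10.7 and 12.1 TPM to 14.2 and 16.7 TPM (0.45, SE 0.12, adjusted p = 0.0346), and for Eif2ak2, the kinase PKR that stops translation on double-stranded RNA, from 35.4 and 42.7 TPM to 51.0 and 54.0 TPM (0.45, SE 0.089, adjusted p = 0.0165). Trim30a rose from 102 and 119 TPM to 136 and 140 TPM (0.34, SE 0.071, adjusted p = 0.0198), and Ifi35 from 96.1 and 103 TPM to 116 and 116 TPM (0.25, SE 0.053, adjusted p = 0.0205). All 4 calls were lost when either Cd23-Cre Bhlha15 fl/fl library was left out and without the trend in the spread, that of Xaf1 also without wildtype replicate 1, without the filter on low values and with all 10 libraries in 1 model, with adjusted p up to 0.211. Ifit3 stood at the threshold, with 1.59 and 2.10 TPM against 2.95 and 3.64 TPM and an adjusted p of 0.050005. The other IFIT genes and the OAS genes were not called, with log2 fold changes between 0.030 and 0.29 for Ifit1 and Ifit2.

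Among the genes that fell without Mist1, Ifitm3 and Ido1 changed most. Ifitm3 was at 133 and 104 TPM in wildtype PCs and at 46.3 and 42.1 TPM without Mist1 (-1.40, SE 0.14, adjusted p = 0.00255), a fold of 2.64. Its neighbour Ifitm2 was at 6.76 and 6.85 TPM against 7.78 and 6.36 TPM, and Ifitm1 was at 4.20 and 2.502 TPM against 5.15 and 1.96 TPM. In both genotypes Ifitm1 and Ifitm3 were higher in the library with the higher neutrophil marker sum (951 against 448 TPM in wildtype, 818 against 545 TPM without Mist1), and the part of neutrophil RNA in these values was not tested. Ido1 fell from 6.51 and 4.52 TPM to 1.54 and 2.01 TPM (-1.55, SE 0.27, adjusted p = 0.011), and as a gene in the study's own list of Mist1-activated genes it is not independent evidence.

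Stat2 fell from 127 and 132 TPM to 77.6 and 83.5 TPM (-0.67, SE 0.062, adjusted p = 0.00219), while its partner Irf9 was at 78.1 and 88.0 against 89.8 and 97.7 TPM and was not called (0.19, 95% interval 0.016 to 0.37, adjusted p = 0.0948). Irf7, which rose without Xbp1 in PBs, was at 61.1 and 63.0 TPM against 55.3 and 64.6 TPM (-0.036, -0.25 to 0.18). Gbp2 fell from 20.4 and 20.6 TPM to 12.6 and 16.03 TPM (-0.51, SE 0.13, adjusted p = 0.035), and Gbp3 from 71.9 and 61.4 TPM to 51.1 and 49.8 TPM (-0.38, SE 0.10, adjusted p = 0.0412). Ifi203 fell from 72.5 and 85.5 TPM to 49.8 and 60.1 TPM (-0.51, SE 0.11, adjusted p = 0.0222) and Parp14 from 63.1 and 60.6 TPM to 49.2 and 51.2 TPM (-0.28, SE 0.070, adjusted p = 0.031). The calls of Gbp2, Gbp3, Ifi203 and Parp14 were lost without the trend and without Cd23-Cre Bhlha15 fl/fl replicate 1. Gbp2 and Gbp3 were also not called without the filter on low values, Gbp3 and Ifi203 with all 10 libraries in 1 model and Gbp3 with quantile normalization. Those of Gbp3 and Parp14 were also lost without its replicate 2, those of Gbp2 and Parp14 without wildtype replicate 1 and that of Gbp2 without wildtype replicate 2 (adjusted p up to 0.194). Isg20 was at 524 and 486 TPM in wildtype PCs and at 449.7 and 469.9 TPM without Mist1, and was not called (-0.12, -0.30 to 0.070).

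**Figure D4:**
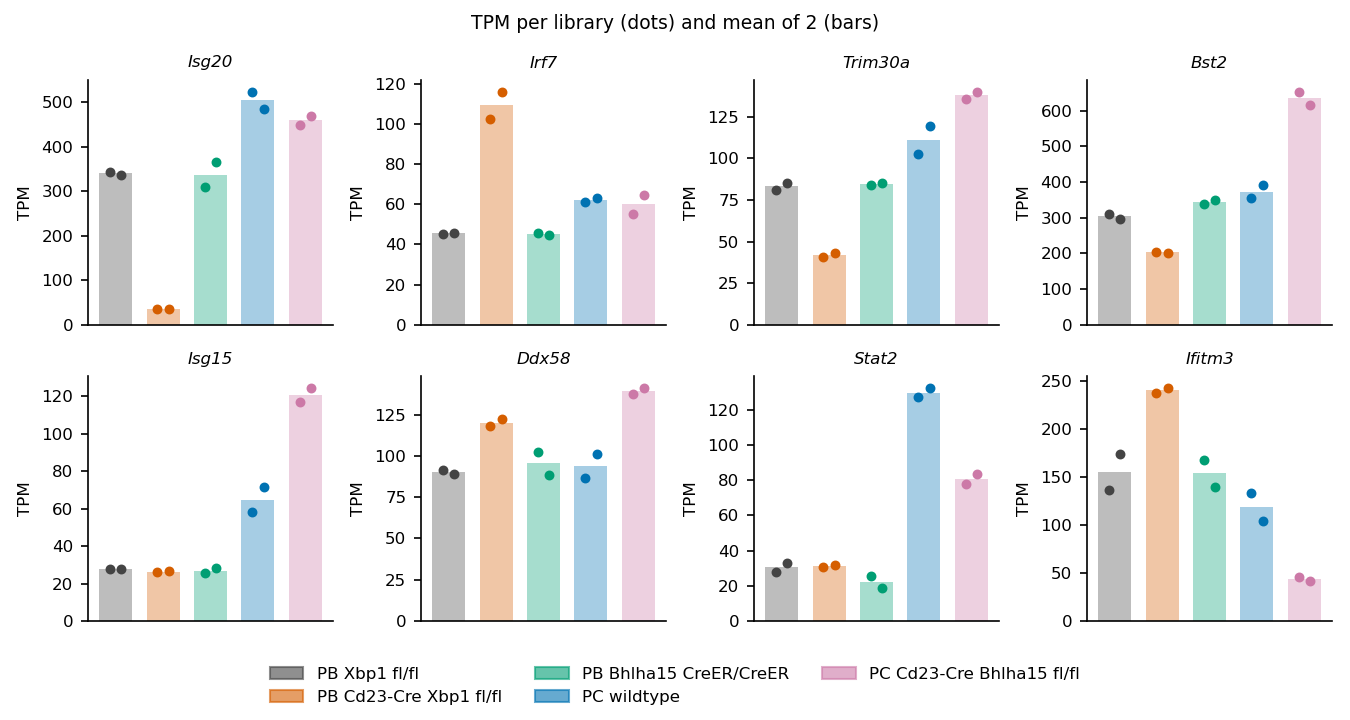
TPM of 8 genes are shown for each library (dots) with the mean of the 2 libraries of a group (bars), on linear axes from 0. Isg20, Trim30a and Bst2 are lowest and Irf7 highest in Cd23-Cre Xbp1 fl/fl PBs, whereas Isg15, Bst2 and Ddx58 are highest and Ifitm3 lowest in Cd23-Cre Bhlha15 fl/fl PCs.

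Bst2, Trim30a, Ifitm3, Ifi203, Parp14 and Ido1 were called both without Xbp1 in PBs and without Mist1 in PCs. Ifi203, Parp14 and Ido1 were lower in both, whereas Bst2 and Trim30a were lower in PBs and higher in PCs and Ifitm3 was higher in PBs and lower in PCs. These comparisons use different libraries and differ in the deleted gene, the culture and the stage. Whether loss of Mist1 itself acted differently in PCs and PBs was tested as the difference between its effect in PCs and that in Bhlha15 CreER/CreER PBs, a test added after the data were seen, in the model of all 10 libraries. The difference was called for 4 of the 40 genes, and for 6.11% of all 13230 genes. Isg15 differed by 0.94 (SE 0.15, adjusted p = 0.0113), with a log2 fold change of 0.93 in PCs and of -0.011 in PBs, and Ifitm3 by -1.42 (SE 0.20, adjusted p = 0.0087), with -1.39 in PCs and 0.026 in PBs. For Bst2 the difference was 0.57 (SE 0.10, adjusted p = 0.0161) and for Ddx58 0.48 (SE 0.095, adjusted p = 0.0239). The Bst2 call was lost without Xbp1 fl/fl, wildtype or Cd23-Cre Bhlha15 fl/fl replicate 1, and the Ddx58 call without each of the 8 libraries other than Bhlha15 CreER/CreER replicate 1 and wildtype replicate 2. The allele by which Mist1 was lost, stage and culture differ together in this test and cannot be told apart.

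**Figure D5:**
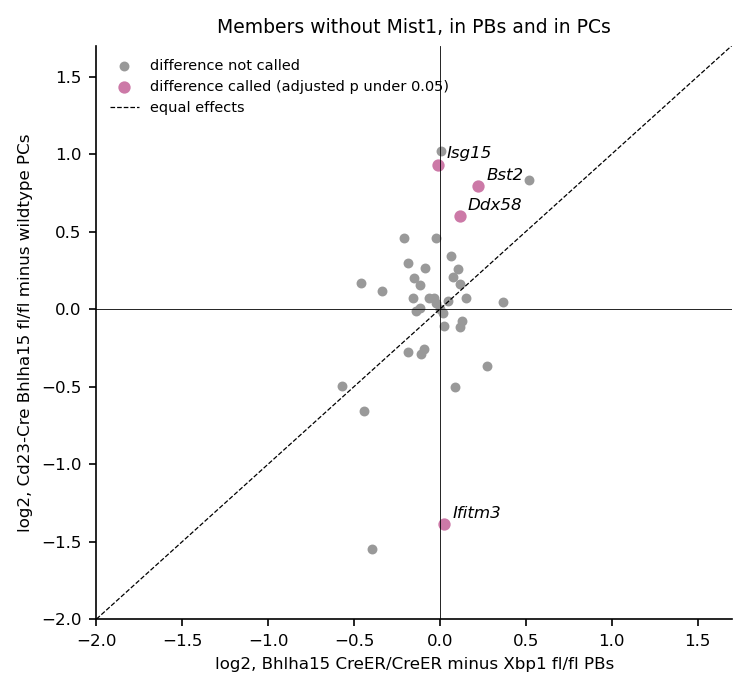
Each dot is a gene of the list, with its log2 fold change without Mist1 in PBs on the horizontal axis and in PCs on the vertical axis, and the dashed line marks equal effects. The 4 named genes, for which the difference was called, lie between -0.011 and 0.22 in PBs and between -1.39 and 0.93 in PCs.

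The genes around the list, from ligands to inhibitors, were followed as 40 listed genes of the pathway. Ifnb1, Ifna2, Ifna4 and Ifne, which encode type I interferons, were listed at 0 in all 10 libraries, and Ifng was between 0.151 and 1.63 TPM. Without Xbp1, 5 of 34 tested genes were higher (14.7%, against 10.3% of all genes) and 8 lower (23.5%, against 18%). Unc93b1, which escorts nucleic acid sensing Toll-like receptors, rose from 387 and 395 TPM to 738 and 687 TPM (log2 fold change 0.66), and Nlrc5, the activator of MHC class I genes, from 12.6 and 14.7 TPM to 22.2 and 24.6 TPM (0.57). Tlr7, the receptor for single-stranded RNA, fell from 90.1 and 91.0 TPM to 37.4 and 36.5 TPM (-1.50), and Tmem173, which encodes the DNA-sensing adaptor STING, from 338 and 313 TPM to 174 and 151 TPM (-1.22). None of the 34 genes was called by limma in Bhlha15 CreER/CreER PBs, where 0.0495% of all genes were called higher and 0.272% lower.

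In PCs without Mist1, 8 of 34 pathway genes were higher (23.5%, against 13.3% of all genes) and 6 lower (17.6%, against 16.2%). Ifnar2, a chain of the type I receptor, was at 62.4 and 68.5 TPM in wildtype PCs and at 164 and 166 TPM without Mist1 (1.35, SE 0.056, adjusted p = 0.000748), and its partner Ifnar1 rose from 49.0 and 56.0 TPM to 67.0 and 65.2 TPM (0.35). Socs3, an inhibitor of cytokine signalling, fell from 16.2 and 13.6 TPM to 6.83 and 4.84 TPM (-1.33). Tmem173 and Tlr7 were lower here too, with log2 fold changes of -1.03 and -0.72.

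Binding of Mist1 was compared with these changes through the peak lists of 2 Bio-ChIP-seq experiments, in which biotinylated Mist1 was pulled down from CD138+ PBs stimulated with LPS, another culture than that of the RNA-seq. Regions found in both experiments numbered 23804 after 29413 and 30247 peaks had been intersected. Within 1 kb of a start site, 23 of the 40 genes had such a region (57.5%), as did 35.9% of 22219 protein-coding genes and 64.2% of the 10597 with at least 1 TPM in Xbp1 fl/fl PBs. Of the 35 listed genes at that level 20 (57.1%) had one. An E-box CAGCTG lay in the central 300 bases of 7 of the 22 regions concerned (31.8%) and of 36.9% of all regions.

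Regions were set beside the calls in PCs without Mist1. Of the 7 genes that fell, Stat2, Gbp2, Gbp3, Ifi203 and Ido1 had a region within 1 kb of a start site, which was true of 83.3% of the 1759 coding genes called lower. Of the 7 that rose, Ddx58 and Ifi35 had one, against 57.4% of the 1450 coding genes called higher. The Ido1 region, chr8:25707300-25707970, covered the start site, and the Stat2 region, chr10:127706961-127708308, did so as well. The nearest region to Isg15 was 1728 bases from its start site, that to Bst2 5077 bases, that to Ifitm3 11024 bases and that to Parp14 1077 bases. Isg20 had a region over its start site, chr7:86058273-86060196, which also covers the motif stretch printed above, although its level was not called different without Mist1 in PBs or PCs.

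The response element was present in genes of every kind of call. It was found for 5 of the 7 genes that rose without Mist1 in PCs (Isg15, Bst2, Ddx58, Eif2ak2 and Trim30a), for all 5 of the genes with a window that fell (Stat2, Ifi203, Gbp2, Gbp3 and Ifitm3) and for 7 of the 18 not called, against 4.11%, 3.55% and 3.96% of all genes with the same calls. Without Xbp1 in PBs it was found for 2 of 5 genes that rose (Oas1a and Ifitm3, but not Irf7, Irf9 or Dtx3l) and 3 of 4 that fell (Bst2, Trim30a and Ifi203, but not Isg20), as well as for 11 of 20 not called, against 3.92%, 3.62% and 3.66% of all genes with the same calls.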

How the data were processed

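The RNA-seq values are length-corrected transcript shares (TPM) as deposited. The authors trimmed reads with cutadapt, aligned them to mm9 with STAR 2.4.2, counted them per gene with FeatureCounts 1.5 and converted the counts to TPM, leaving out immunoglobulin and T cell receptor genes. Whether counting used strand is not given in the sources used here. Mist1 peaks were called by the authors with MACS for each experiment after alignment with Bowtie 1.0.0, and the score column of the deposited lists is 0 in every entry and was not used. Sequencing depth is unknown, so that no counting interval is given.

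The 40 genes and the lists of pathway genes and markers were chosen with earlier results of these data known. Libraries were rescaled by the median of ratios, genes below 1 TPM in all or all but 1 of the libraries of the model were dropped, and log2(scaled TPM + 0.1) was tested with limma 3.58.1 in R 4.3.3 (empirical Bayes with a trend, two-sided, Benjamini-Hochberg adjustment over all genes kept). The script was tested on simulated data. The PB comparisons used the 6 PB libraries, the PC comparison the 4 PC libraries and the comparison between stages all 10. An exact permutation test of 2 against 2 libraries cannot pass 0.05 and was not used. Full values are given for called genes with a mean above 5 TPM in the higher group, at most 8 for each direction, and for Isg20 and Ido1 in the comparison whose study list holds them. Alternatives were TPM as deposited, quantile normalization, other pseudocounts and filters, other spread estimates, other sets of libraries and leaving out each library. Peaks were intersected with bedtools 2.31.1 (at least 1 base), and near-identical transcripts were sought with BLAST 2.17.0. Positions come from the GENCODE annotation of mm9.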

Additional observations from a re-analysis of the deposited data

Results flagged for a closer look

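The effect of Mist1 loss differed between PCs and PBs for 4 of the 40 genes, in a test of the difference itself that was added after the data were seen. The log2 effect in PCs minus that in PBs was 0.94 for Isg15 and -1.42 for Ifitm3, and both calls were kept in 8 of 8 alternative settings and without each of the 8 libraries in turn, with ranges of 0.81 to 1.08 and of -1.62 to -1.21. It was 0.57 for Bst2 and 0.48 for Ddx58, which were not called without the trend in the spread and were kept in 5 and 2 of the 8 fits that left out a library. In PBs Mist1 was lost through the CreER allele in culture and in PCs through Cd23-Cre in the spleen, so that allele, stage and culture cannot be told apart.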

How the results depend on the processing

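No paired analysis was possible because the labels carry no replicate numbers, and the numbers given here follow the order of the samples. No called gene changed direction under any alternative. On TPM as deposited, 13 of the interferon response genes were called higher without Xbp1 against Xbp1 fl/fl PBs and 14 against Bhlha15 CreER/CreER PBs (6 in each after rescaling). Without the trend in the spread, 3 genes were called higher and 3 lower in PCs without Mist1. With 1 library left out at a time, the genes called higher and lower numbered 3 to 6 and 4 to 5 without Xbp1 against Xbp1 fl/fl PBs, 3 to 7 and 4 to 6 against Bhlha15 CreER/CreER PBs, 3 to 10 and 3 to 7 in PCs without Mist1, and 23 to 27 and 5 to 7 between wildtype PCs and Xbp1 fl/fl PBs. The lowest counts came without Cd23-Cre Xbp1 fl/fl replicate 2 (3 higher against Xbp1 fl/fl), without either Cd23-Cre Xbp1 fl/fl library (3 higher against Bhlha15 CreER/CreER), without either Cd23-Cre Bhlha15 fl/fl library (3 higher, and 3 lower without replicate 1) and without Xbp1 fl/fl or wildtype replicate 2 (5 lower between stages). A lone library was then assumed to vary like the other groups. Bhlha15 CreER/CreER PBs had 0 called genes of the list in every fit. Over all genes, calls higher without Xbp1 rose to 2511 (against Xbp1 fl/fl) and 2325 (against Bhlha15 CreER/CreER) with quantile normalization, those between Bhlha15 CreER/CreER and Xbp1 fl/fl to 12 higher and 74 lower on TPM as deposited, and those higher in PCs without Mist1 fell to 844 without the trend. With any 1 of the 4 libraries left out, 540 to 624 genes overall were higher without Xbp1 against Xbp1 fl/fl PBs (1282 lower without Xbp1 fl/fl replicate 1), and without either Cd23-Cre library 518 to 560 were higher against Bhlha15 CreER/CreER PBs and 294 to 394 higher and 816 to 947 lower in PCs without Mist1. The difference in Mist1 effect between PCs and PBs was called for 2 genes of the list without the trend and for 2 to 7 with 1 library left out (7 without wildtype replicate 2, and 2 without replicate 1 of Xbp1 fl/fl, wildtype or Cd23-Cre Bhlha15 fl/fl). With 2 libraries a group and depth unknown, small changes of genes near 1 TPM could not be resolved. Why the counts moved was not tested.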
